A study of Homo sapiens with 6 samples.

Results

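Expression of 10 genes for elastic fibres and their microfibrils was measured in a renal carcinoma line in which the co-chaperone gene DNAJC2 had been knocked down. They were taken by name, as the rows of the deposited count table called ELN, FBN1, FBN2, FBLN1, FBLN2, FBLN5, EFEMP1, EFEMP2, LTBP2 and MFAP2. All 10 were present among the 20532 genes of the table, and all 10 were among the 13988 genes that passed the filter on low counts. The knockdown group, shDNAJC2, held 3 libraries of cells transduced with lentivirus carrying a short hairpin RNA against DNAJC2. The control group, shCtrl, held 3 libraries of cells transduced with a negative control hairpin. Both groups were ACHN cells, a human renal carcinoma line that the labels assign to clear cell renal cell carcinoma. Each hairpin had been used to make a stable line, and whether a line was a clone or a pool was not stated. The 3 libraries of a line were called biological replicates with no word on how the cultures were kept apart, so the p-values measure only the spread between these libraries.

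An elastic fibre has a core of elastin laid down on a scaffold of microfibrils. Microfibrils are chains of fibrillin that carry smaller glycoproteins and latent TGF-beta binding proteins, and fibulins join tropoelastin, the soluble elastin precursor, to that scaffold before lysyl oxidases crosslink it. Fibroblasts and smooth muscle cells are the usual producers, and in the kidney the fibres are found mainly in vessel walls and interstitial matrix.

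Total counts were 17491462 to 25760291 per library. DNAJC2 itself was at 51.2, 50.4 and 38.5 CPM (read counts scaled to the library's size with edgeR's TMM factors) in shDNAJC2 1, 2 and 3, against 76.7, 69.8 and 86.5 CPM in shCtrl 1, 2 and 3. Each knockdown library was below each control library for the targeted gene, whose fitted level was 60.1% of control (95% interval 47.0 to 76.8%, edgeR adjusted p 0.43). DESeq2, used as an alternative, gave DNAJC2 an adjusted p of 0.036 over all 6 libraries. The control library shCtrl 3 stood apart from the other controls, with 2080 genes more than 2-fold away from shCtrl 1, whereas 48 genes differed that much between shCtrl 1 and shCtrl 2. It was close to 2 knockdown libraries, with 78 genes more than 2-fold away between shDNAJC2 2 and shCtrl 3 and 165 between shDNAJC2 1 and shCtrl 3. shDNAJC2 3 stood apart within its own group, with 547 genes that far from shDNAJC2 1, 571 from shCtrl 3 and 805 from shCtrl 1. Between shDNAJC2 1 and shDNAJC2 2 there were 114 such genes. Because of shCtrl 3, results are given with all 3 controls, without shCtrl 3, and against shCtrl 3 alone, a comparison added once the data were known. shCtrl 3 was singled out by its values in these same data, and shCtrl 1 and shCtrl 2, the controls then kept, were close to each other. Adjusted p-values without shCtrl 3 therefore describe the libraries kept and are not an independent test. Of the defining renal epithelial genes, CDH1 (E-cadherin) was listed at 0 in every library, PAX2 had 1 count in all 6 libraries together, LHX1 had 5 counts, and PAX8 was at 2.82 to 4.64 CPM. KRT18 was at 66.5 to 89.8 CPM, KRT8 at 30.9 to 41.7 CPM and EPCAM at 0.84 to 1.43 CPM. The cadherin genes CDH2 and CDH6 were at 98.0 to 172 CPM and 17.7 to 127 CPM. Some genes usually taken as fibroblast markers were abundant, with PDGFRA at 128 to 186 CPM and THY1 at 162 to 290 CPM. Others were lower, with DCN at 18.9 to 27.3 CPM, LUM at 14.1 to 24.5 CPM and FAP at 19.5 to 27.5 CPM. The expression of these markers thus went in part against the label of an epithelial carcinoma cell, and the cells are called here by their label, ACHN.

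Elastin, the 2 fibrillin genes and MFAP2 were low in the knockdown libraries and in shCtrl 3, while 4 of the 5 fibulin genes were lower in every knockdown library than in every control library, shCtrl 3 included. Of the 10 members, 4 were thus lower and 0 higher without overlap, against 8.43% of all tested genes lower and 7.33% higher. LTBP2 and EFEMP1 had no common direction. Over all 6 libraries no member passed after adjustment. In edgeR's quasi-likelihood test, 0 of the 10 members had an adjusted p under 0.05, as did 0 of all 13988 genes (0%). At an unadjusted p under 0.05, edgeR had 7 of the 10 members lower and none higher, against 7.33% of all genes lower, and 1585 genes (11.3%) passed in both directions together. The members, and the pathway lists below, were picked with earlier results of these data known. Counts set beside shares of all genes therefore describe them and are not an independent test. DESeq2 called 35 genes (0.250%) and 0 of the 8 members to which it gave an adjusted p. By limma-voom 0 genes were called, with 1473 genes (10.5%) and 4 of the 10 members at an unadjusted p under 0.05. The median log2 fold change was −0.53 over the members and −0.02 over all genes tested. Without shCtrl 3, edgeR called 8 of the 10 members lower and 0 higher, against 17.0% of all genes lower and 17.8% higher. With each library's GC trend removed as well, 7 were lower and 1 higher, against 17.0 and 20.2% of all genes. Against shCtrl 3 alone, a single library assumed to vary like the knockdown group, edgeR called 0 members and 0 genes, and 2 members had an unadjusted p under 0.05, against 5.74% of all genes.

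**Figure D1:**
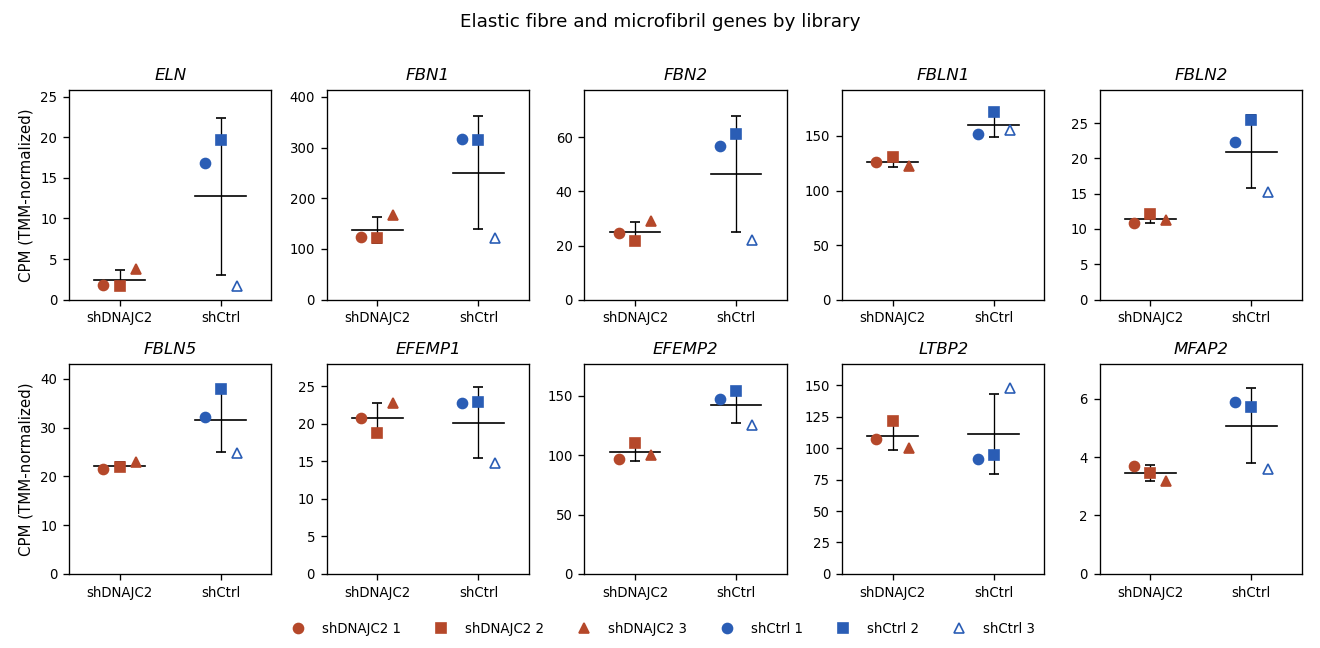
CPM of each gene (vertical axis, TMM-normalized, from 0) in the shDNAJC2 libraries (left, red) and the shCtrl libraries (right, blue), with the mean as a line and the SD as bars (n = 3 each). The open triangle is shCtrl 3, which lies at the knockdown level for ELN, FBN1, FBN2 and MFAP2, and above each knockdown library for FBLN1, FBLN2, FBLN5, EFEMP2 and LTBP2.

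Elastin is the extensible core protein of the fibre. ELN (ENSG00000049540, chromosome 7, 74027789 to 74069907 in GRCh38 coordinates, as for all genes here) was at 1.77, 1.62 and 3.82 CPM in shDNAJC2 1, 2 and 3, against 16.8, 19.7 and 1.67 CPM in shCtrl 1, 2 and 3. The groups overlapped, because shCtrl 3 lay among the knockdown libraries and the other controls far above them. Those values rested on 34, 27 and 96 reads in the knockdown libraries and 411, 517 and 40 reads in the controls. The 95% counting intervals were 1.23 to 2.48 CPM in shDNAJC2 1 and 1.06 to 2.35 CPM in shDNAJC2 2, against 1.20 to 2.28 CPM in shCtrl 3, so these 3 libraries could not be separated by their read numbers. shDNAJC2 3, at 3.09 to 4.66 CPM, was above all 3 of them. Over all libraries the fitted level in the knockdown was 19.2% of control (95% interval 4.77 to 76.9%), with an adjusted p of 0.43 in edgeR. Without shCtrl 3 ELN fell to 13.6% of control (8.52 to 21.8%, edgeR adjusted p 0.00039). Against shCtrl 3 alone the log2 fold change was 0.56 (95% interval −0.55 to 1.67). The GENCODE 29 annotation places an antisense gene, ELN-AS1, over 165 exonic bases of ELN, and since the strand setting of the counting was not given, its reads could not be told apart.

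Fibrillins polymerize into the microfibril. FBN1 encodes fibrillin-1, the main fibrillin of adult tissue, and FBN2 encodes fibrillin-2, which is best known from fetal tissue. FBN1 (ENSG00000166147, chromosome 15, 48408306 to 48645849) was at 124, 121 and 167 CPM in shDNAJC2 1, 2 and 3, against 317, 314 and 121 CPM in shCtrl 1, 2 and 3. FBN2 (ENSG00000138829, chromosome 5, 128257909 to 128659185) was at 24.5, 21.5 and 28.9 CPM in the knockdown libraries, against 56.7, 61.1 and 21.9 CPM in the controls. For both genes shCtrl 1 and shCtrl 2 were high, shCtrl 3 was level with shDNAJC2 2, and shDNAJC2 3 was the highest of the knockdown libraries, so that the groups overlapped. The fitted knockdown level was 54.8% of control for FBN1 (95% interval 30.2 to 99.7%) and 53.7% for FBN2 (29.3 to 98.4%), each with an edgeR adjusted p of 0.43. Without shCtrl 3 both fell, FBN1 to 43.7% (35.0 to 54.6%, edgeR adjusted p 0.00068) and FBN2 to 42.6% (34.6 to 52.5%, adjusted p 0.00045). Against shCtrl 3 alone they stood at 114% (83.4 to 156%) and 115% (83.1 to 158%). SLC27A6 on the opposite strand shares 56 exonic bases with FBN2, where reads of the 2 genes could not be told apart.

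The ratio of the 2 fibrillin mRNAs stayed within a narrow range while their levels moved. Per kilobase of longest annotated transcript, FBN1 was 4.81, 5.32 and 5.46 times FBN2 in the shDNAJC2 libraries and 5.29, 4.86 and 5.23 times in the shCtrl libraries. This ratio is taken within a library and does not depend on library scaling. Among the other 13987 tested genes, FBN2 ranked 9 by likeness to FBN1, with a mean absolute difference of 0.061 in log2 CPM centred over the 6 libraries. The 3 nearest genes were CTTNBP2 (0.032), POLH (0.038) and APOL2 (0.041). CTTNBP2, for example, was at 3.91, 3.83 and 5.49 CPM in the knockdown libraries and at 10.9, 10.2 and 3.81 CPM in the controls.

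The start-site regions of FBN1 and FBN2 are shown because both genes took nearly the same course over the 6 libraries, and that of LTBP2 because it did not. Each is the 250 bases before the RefSeq start (GRCh38.p14, minus strand of the chromosome, written 5′ to 3′ along the gene). Capitals mark matches on either strand to the GC box GGGCGG, the CAAT box motif CCAAT, the TATA box motif TATAAA, the AP-1 motif TGANTCA or the E-box CACGTG. Windows were found for 8 of the 10 members, and none for ELN and EFEMP1.
FBN1, chr15:48644971-48645220: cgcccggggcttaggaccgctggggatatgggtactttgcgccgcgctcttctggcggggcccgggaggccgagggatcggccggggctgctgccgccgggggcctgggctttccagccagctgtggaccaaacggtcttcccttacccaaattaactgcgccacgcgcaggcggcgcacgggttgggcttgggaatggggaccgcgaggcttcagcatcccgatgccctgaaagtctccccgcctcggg
FBN2, chr5:128538246-128538495: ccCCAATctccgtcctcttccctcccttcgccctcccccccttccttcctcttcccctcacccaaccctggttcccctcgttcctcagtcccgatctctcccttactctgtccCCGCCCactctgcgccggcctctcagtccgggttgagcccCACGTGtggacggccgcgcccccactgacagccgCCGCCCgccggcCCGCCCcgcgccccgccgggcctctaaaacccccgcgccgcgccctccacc
LTBP2, chr14:74612238-74612487: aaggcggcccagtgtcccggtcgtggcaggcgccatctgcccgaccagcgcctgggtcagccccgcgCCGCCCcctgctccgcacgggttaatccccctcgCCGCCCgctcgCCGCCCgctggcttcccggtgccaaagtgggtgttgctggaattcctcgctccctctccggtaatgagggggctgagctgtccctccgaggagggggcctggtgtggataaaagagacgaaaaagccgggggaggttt
The FBN1 window held none of the 5 motifs. The FBN2 window held 3 GC boxes, 1 CAAT motif and 1 E-box, and the LTBP2 window held 3 GC boxes. Each of the 3 RefSeq starts lies inside the longer span that GENCODE 29 gives the gene. Over all 35116 RefSeq windows of that length, 42.6% held the GC box, 32.0% the CAAT motif, 10.7% the TATA motif, 6.57% the AP-1 motif and 6.34% the E-box. The matches describe letters only, and GC content was 69.6% in the FBN1 window, 72.8% in that of FBN2 and 68.8% in that of LTBP2.

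MFAP2 encodes MAGP-1, a small glycoprotein that binds fibrillin along the microfibril. MFAP2 (ENSG00000117122, chromosome 1, 16974502 to 16980835) was at 3.71, 3.47 and 3.18 CPM in shDNAJC2 1, 2 and 3, against 5.90, 5.73 and 3.60 CPM in shCtrl 1, 2 and 3. As for elastin and the fibrillins, shCtrl 3 lay within the range of the knockdown libraries. The gene rested on 58 to 80 reads per knockdown library and 86 to 150 reads per control library. Its fitted level was 67.9% of control (95% interval 45.6 to 101%, edgeR adjusted p 0.43), and it fell to 59.4% without shCtrl 3 (45.1 to 78.3%, adjusted p 0.012).

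LTBP2 encodes a relative of the latent TGF-beta binding proteins that sits on fibrillin microfibrils and, unlike its relatives, does not bind latent TGF-beta. LTBP2 (ENSG00000119681, chromosome 14, 74498170 to 74612378) was at 107, 122 and 100 CPM in shDNAJC2 1, 2 and 3, against 91.1, 94.4 and 148 CPM in shCtrl 1, 2 and 3. Here shCtrl 3 was the highest library, and the knockdown libraries lay between it and the other controls. The fitted level was 98.5% of control (95% interval 70.2 to 138%). Without shCtrl 3 it was 118% (99.8 to 141%, edgeR adjusted p 0.11), and against shCtrl 3 alone it was 74.3% (57.1 to 96.7%, adjusted p 0.79). Per kilobase, LTBP2 was 1.18, 1.38 and 0.826 times FBN1 in the knockdown libraries, against 0.395, 0.412 and 1.68 times in shCtrl 1, 2 and 3. A long noncoding gene on the opposite strand overlaps 207 exonic bases of LTBP2, and its reads could not be told apart either.

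Fibulins are calcium-binding glycoproteins that bridge elastin, microfibrils and basement membranes. FBLN1, the founding member, is found in elastic fibre cores and basement membranes. FBLN1 (ENSG00000077942, chromosome 22, 45502238 to 45601135) was at 126, 131 and 122 CPM in shDNAJC2 1, 2 and 3, against 152, 172 and 155 CPM in shCtrl 1, 2 and 3. shCtrl 3 stood with the other controls, and the groups did not overlap. FBLN2, whose product lies in vessel walls and basement membranes (ENSG00000163520, chromosome 3, 13549131 to 13638422), was at 10.9, 12.1 and 11.3 CPM in the knockdown libraries, against 22.3, 25.4 and 15.2 CPM in the controls. shCtrl 3 was here between the groups, above every knockdown library and below the other controls.

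FBLN5 binds tropoelastin and integrins and directs elastin onto microfibrils. FBLN5 (ENSG00000140092, chromosome 14, 91869412 to 91947987) was at 21.5, 22.0 and 23.0 CPM in shDNAJC2 1, 2 and 3, against 32.2, 37.9 and 24.8 CPM in shCtrl 1, 2 and 3. EFEMP2 encodes fibulin-4, which brings lysyl oxidase to tropoelastin. EFEMP2 (ENSG00000172638, chromosome 11, 65866441 to 65873592) was at 96.7, 110 and 100 CPM in the knockdown libraries, against 147, 154 and 125 CPM in the controls. For both genes the lowest control was shCtrl 3, and it was still above the highest knockdown library. EFEMP2 shares 11 exonic bases with MUS81 on the opposite strand.

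These 4 fibulin genes were the members whose groups did not overlap, all 4 lower in the knockdown, against 8.43% of all tested genes lower and 7.33% higher without overlap. The fitted levels were 54.4% of control for FBLN2 (95% interval 38.8 to 76.2%), 70.1% for FBLN5 (53.1 to 92.5%), 72.0% for EFEMP2 (59.3 to 87.4%) and 79.3% for FBLN1 (67.4 to 93.2%). Each had an edgeR adjusted p of 0.43, so none passed over all genes. Without shCtrl 3 all 4 fell, FBLN2 to 47.9%, FBLN5 to 63.4%, EFEMP2 to 68.1% and FBLN1 to 78.3% (edgeR adjusted p 0.00075, 0.004, 0.0036 and 0.024). Against shCtrl 3 alone the levels were 75.4% for FBLN2 (54.1 to 105%), 90.0% for FBLN5 (67.7 to 120%), 82.4% for EFEMP2 (63.9 to 106%) and 82.2% for FBLN1 (64.2 to 105%), and every interval included no change. GC content of the longest transcript was 61.9% for FBLN2, 57.0% for FBLN1, 54.9% for EFEMP2 and 51.5% for FBLN5, against a median of 48.5% over the genes tested. With the GC trend of each library removed, over all 6 libraries, the log2 fold changes were −0.66, −0.19, −0.38 and −0.48 in that order, and FBLN1 no longer had an unadjusted p under 0.05 in edgeR (0.097).

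EFEMP1, which encodes fibulin-3, was the fibulin gene without that pattern. EFEMP1 (ENSG00000115380, chromosome 2, 55865967 to 55924139) was at 20.8, 18.7 and 22.7 CPM in shDNAJC2 1, 2 and 3, against 22.8, 22.9 and 14.7 CPM in shCtrl 1, 2 and 3. shCtrl 3 was the lowest of all 6 libraries. The fitted level was 103% of control (95% interval 74.6 to 143%), 91.3% without shCtrl 3 (75.0 to 111%) and 142% against shCtrl 3 alone (103 to 196%, edgeR adjusted p 0.79). Per kilobase EFEMP2 was 6.18, 7.81 and 5.87 times EFEMP1 in the knockdown libraries, against 8.61, 8.94 and 11.3 times in the controls.

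**Figure D2:**
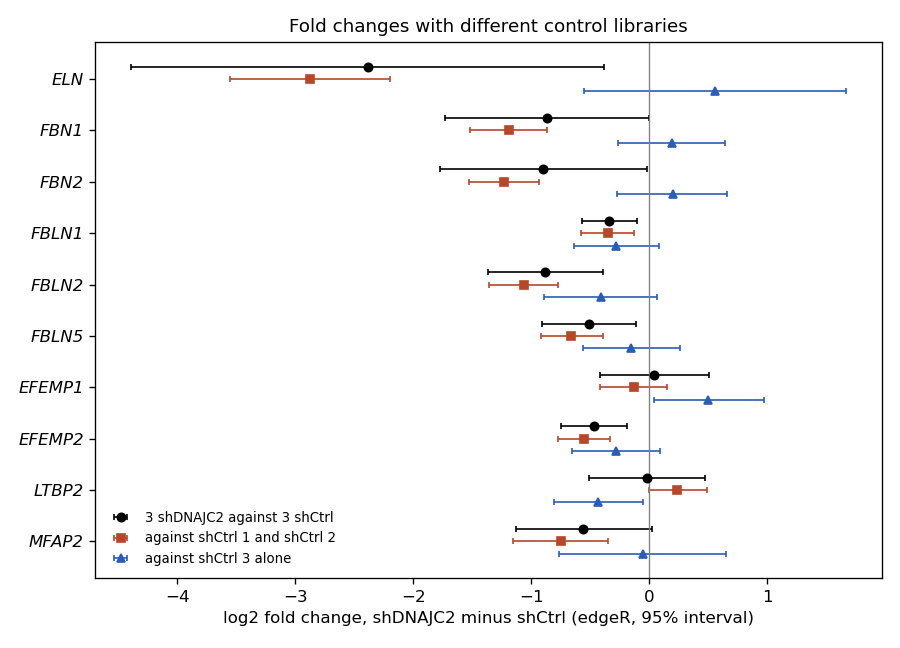
Log2 fold change, shDNAJC2 minus shCtrl (horizontal axis, edgeR with 95% intervals), of each gene against all 3 controls (black), against shCtrl 1 and shCtrl 2 (red) and against shCtrl 3 alone (blue). ELN, FBN1 and FBN2 lie left of 0 with shCtrl 1 and shCtrl 2 and right of 0 with shCtrl 3 alone, while FBLN1, FBLN2, FBLN5 and EFEMP2 lie left of 0 in all 3 comparisons.

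Per kilobase of longest transcript, EFEMP2 and FBLN1 were the most abundant members in both groups and ELN and MFAP2 the least. EFEMP2 averaged 45.0 ± 3.04 CPM per kb in shDNAJC2 libraries and 62.4 ± 6.70 in shCtrl libraries, and FBLN1 averaged 43.7 ± 1.60 in shDNAJC2 libraries and 55.1 ± 3.75 in shCtrl libraries (SD, n = 3 each). Their ranges overlapped in each group, so their order was not separated. In the knockdown LTBP2 (12.8 ± 1.31) and FBN1 (11.7 ± 2.16) came next with overlapping ranges, followed without overlap by FBLN5 (9.15 ± 0.332) and EFEMP1 (6.86 ± 0.661). FBLN2 (2.64 ± 0.145) and FBN2 (2.24 ± 0.332) overlapped, and MFAP2 (1.46 ± 0.110) and ELN (0.606 ± 0.310) were last. In the controls only FBLN1 over FBN1 and LTBP2 over EFEMP1 were separated from the next gene in order. Summed over the 10 genes, the level was 131, 140 and 137 CPM per kb in shDNAJC2 1, 2 and 3, against 193, 207 and 158 in shCtrl 1, 2 and 3. ELN made up 0.340, 0.291 and 0.705% of that sum in the knockdown libraries, against 2.20, 2.41 and 0.266% in the controls, and LTBP2 made up 9.47, 10.2 and 8.56% in the knockdown libraries, against 5.52, 5.33 and 10.9% in the controls. The longest transcript need not be the one expressed, and an order between genes depends on it.

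**Figure D3:**
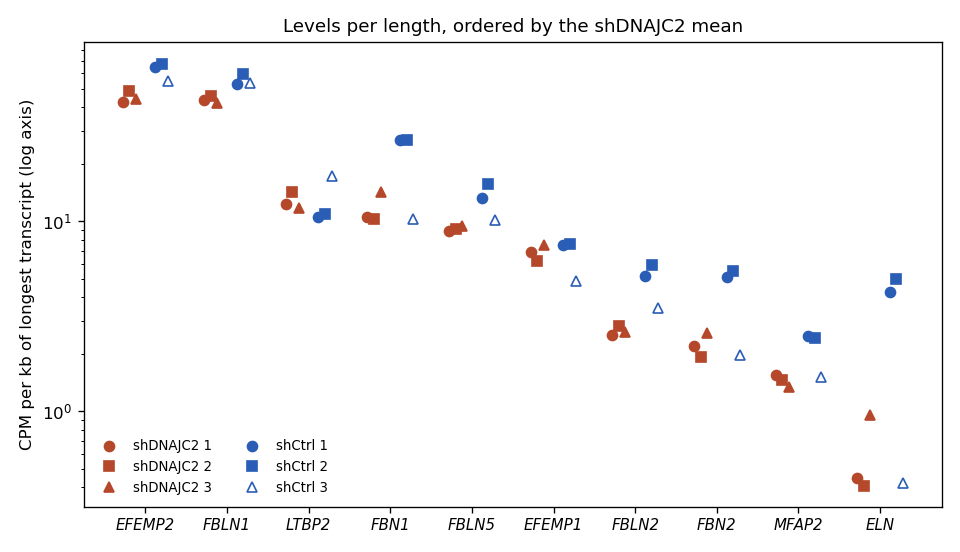
CPM per kilobase of longest annotated transcript (vertical log axis) for each gene in the 3 shDNAJC2 libraries (red, left) and the 3 shCtrl libraries (blue, right; shCtrl 3 open). EFEMP2 and FBLN1 lie highest in every library, and ELN spans 0.407 to 4.98 CPM per kb.

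shCtrl 3 was nearer in CPM to the shDNAJC2 mean than to the mean of shCtrl 1 and shCtrl 2 for 9 of the 10 members, FBLN1 being the exception, against 74.6% of all tested genes. Nearer did not always mean level with the knockdown. shCtrl 3 lay beyond every other library for EFEMP1 (14.7 CPM, lowest) and LTBP2 (148 CPM, highest), and above every knockdown library for FBLN2, FBLN5 and EFEMP2. As a share of the mean of shCtrl 1 and shCtrl 2, the mean of the shDNAJC2 libraries held 13.1% for ELN, 42.4% for FBN2, 43.6% for FBN1, 59.4% for MFAP2, 47.8% for FBLN2, 90.9% for EFEMP1, 63.2% for FBLN5, 67.9% for EFEMP2, 78.1% for FBLN1 and 118% for LTBP2. On the same base shCtrl 3 held 9.15% for ELN, 37.2% for FBN2, 38.4% for FBN1, 61.9% for MFAP2, 63.7% for FBLN2, 64.6% for EFEMP1, 70.7% for FBLN5, 82.9% for EFEMP2, 95.4% for FBLN1 and 160% for LTBP2. Both sets of shares use the same controls. ELN, at the low end of both, had COL3A1 (mean absolute difference 0.087 in centred log2 CPM), AQP3 (0.109) and PLEKHA6 (0.109) as its 3 nearest genes. COL3A1, a fibrillar collagen gene, was at 40.1, 34.3 and 95.4 CPM in the knockdown libraries and at 371, 384 and 36.2 CPM in the controls.

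Markers of matrix-producing cells were also lower in sum in the knockdown libraries and in shCtrl 3. The 10 fibroblast markers, of which none was at 0, summed to 1382, 1407 and 1995 CPM in shDNAJC2 1, 2 and 3, against 4659, 4696 and 1505 CPM in shCtrl 1, 2 and 3, and 9 of the 10 had a negative log2 fold change over all libraries. Most of that sum came from 3 collagen genes, without which it was 587, 578 and 539 CPM in the knockdown libraries, against 649, 683 and 610 CPM in the controls. Without shCtrl 3 edgeR called 5 of the 10 lower and 0 higher, against 17.0% of all genes lower and 17.8% higher. Against shCtrl 3 alone the direction turned, with a positive log2 fold change for 8 of the 10 and a negative one for 2. Their median was then 0.22, against 0.02 over all genes. The 5 smooth muscle markers summed to 113, 116 and 88.3 CPM in the knockdown libraries, against 192, 190 and 129 CPM in the controls, 5 of 5 with a negative log2 fold change, against 7317 of all 13988 genes. Without shCtrl 3, 4 of the 5 were called lower, against 17.0% of all genes. Compared with shCtrl 3 alone, 4 of the 5 had a negative log2 fold change and 1 a positive one, with a median of −0.29. The 9 renal epithelial markers summed to 272 to 312 CPM in the knockdown and 315 to 339 CPM in the controls, but not all went with the sum. CDH6 was at 26.0, 22.8 and 42.8 CPM in the knockdown libraries, against 123, 127 and 17.7 CPM in the controls, and CDH2 was at 172, 156 and 125 CPM in the knockdown libraries, against 103, 98.0 and 160 CPM in the controls. Without shCtrl 3 the 6 renal markers tested had a median log2 fold change of 0.14, with 1 called lower and 1 higher. The 5 endothelial markers summed to 56.0 to 57.9 CPM in the knockdown and 57.8 to 72.3 CPM in the controls, with CDH5 at 0. Most of that sum was TEK, at 49.9 to 53.9 CPM in the knockdown and 52.6 to 71.2 CPM in the controls. Over all libraries 3 of the 4 endothelial markers tested had a positive log2 fold change, with a median of 0.75, and without shCtrl 3 the median was 1.25, with 1 called lower and 2 higher. The 6 blood markers summed to 0.995 to 1.41 CPM in the knockdown and 0.984 to 2.22 CPM in the controls, with CD3E at 0. In RNA from whole cultures, fewer cells of one type and less RNA per cell cannot be told apart, and the part of such markers in the results was not tested.

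The other genes of the pathway were read from 7 lists with 59 genes, 50 of them tested. Over all 6 libraries edgeR called 0 of the 50, with 16 lower and 1 higher at an unadjusted p under 0.05, against 7.33% of all genes lower and 559 of 13988 genes higher. Among the 50, 13 were lower and 1 higher without overlap of the groups, against 8.43% of all tested genes lower and 7.33% higher. Their median log2 fold change was −0.23, against −0.02 over all genes tested. Without shCtrl 3 it called 21 of the 50 lower and 9 higher, and the shares to set beside these and the counts of each list are again 17.0% of all genes lower and 17.8% higher. Every gene named from these lists had an adjusted p of at least 0.43 over all 6 libraries.

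Of the other microfibril and elastic fibre glycoproteins 9 of 12 were tested, with a median of −0.45, and without shCtrl 3 edgeR called 7 lower and 0 higher. FBN3 and MFAP5 were listed at 0 in every library. LTBP4, which binds fibulins and carries latent TGF-beta, was at 81.1, 101 and 110 CPM in shDNAJC2 1, 2 and 3, against 137, 134 and 127 CPM in the controls, without overlap. LTBP3, another carrier of latent TGF-beta, was at 56.0, 69.7 and 76.5 CPM in shDNAJC2, against 105, 101 and 80.6 CPM in shCtrl, again without overlap. FBLN7, a further fibulin gene, was at 12.1, 13.5 and 13.2 CPM in the knockdown libraries and at 16.5, 18.5 and 16.5 CPM in the controls, and so also separated the groups. EMILIN1, whose product lies between elastin and microfibrils, followed the fibrillins, at 104, 121 and 184 CPM in the knockdown libraries, against 345, 346 and 143 CPM in the controls. LTBP1 was at 387, 368 and 372 CPM in shDNAJC2, against 308, 328 and 379 CPM in shCtrl, a log2 fold change of 0.15 (95% interval −0.14 to 0.44).

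The lysyl oxidases, which crosslink elastin and collagen, split without shCtrl 3, with 3 negative and 2 positive log2 fold changes. Over all 6 libraries LOX had a log2 fold change of 0.46 (95% interval −0.14 to 1.07) and LOXL1 one of −0.97 (−1.73 to −0.22). Against shCtrl 3 alone all 5 were negative. LOXL1, the family member tied most closely to elastic fibres, was at 36.4, 40.8 and 48.8 CPM in shDNAJC2 1, 2 and 3, against 94.7, 108 and 44.9 CPM in shCtrl 1, 2 and 3, and fell by 1.26 on the log2 scale without shCtrl 3. LOX was at 155, 142 and 113 CPM in shDNAJC2, against 76.6, 80.6 and 140 CPM in shCtrl, and rose by 0.80 without shCtrl 3. LOXL2 was at 441, 448 and 430.0 CPM in shDNAJC2, against 367, 381 and 581 CPM in shCtrl, LOXL3 at 48.7, 52.8 and 59.4 CPM in shDNAJC2, against 64.9, 67.6 and 58.6 CPM in shCtrl, and LOXL4 at 2.87, 2.15 and 2.79 CPM in shDNAJC2, against 4.88, 5.23 and 3.31 CPM in shCtrl. Of the family only LOXL4 separated the groups over all 6 libraries. Without shCtrl 3 edgeR called LOXL1 and LOXL4 lower and LOX higher. Of the 8 genes for ADAMTS and ADAMTS-like proteins 6 were tested, with 2 lower and 2 higher without shCtrl 3. ADAMTSL4, a microfibril-binding protein gene, was at 10.8, 12.4 and 17.1 CPM in the knockdown libraries and at 22.3, 22.6 and 15.4 CPM in the controls. ADAMTS10 had a log2 fold change of −0.65 over all libraries (95% interval −1.70 to 0.39) and fell by 0.95 without shCtrl 3 (edgeR adjusted p 0.039). Its log2 fold change was 0.32 against shCtrl 3 alone. ADAMTSL5 had a log2 fold change of −0.28 over all libraries and −0.25 without shCtrl 3, where it was not called. Its groups only just did not overlap, with 5.49 CPM in shDNAJC2 3 against 5.5 CPM in shCtrl 2. The genes called higher without shCtrl 3, named after their values were seen, were THSD4 and ADAMTS6. ADAMTS6 was at 19.7, 20.5 and 11.8 CPM in shDNAJC2, against 3.85, 3.67 and 21.1 CPM in shCtrl, and its log2 fold change was 0.86 over all libraries and 2.20 without shCtrl 3 (edgeR adjusted p 0.00065).

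Among matrix partners, with 4 of 8 lower and 0 higher without shCtrl 3, the perlecan gene HSPG2 was at 45.4, 54.0 and 76.4 CPM in the knockdown libraries, against 139, 140 and 75.5 CPM in the controls. VCAN, whose proteoglycan binds fibrillin and fibulins, was at 48.8, 45.2 and 67.6 CPM in shDNAJC2, against 183, 193 and 41.8 CPM in shCtrl. FURIN, the protease that processes fibrillin and TGF-beta precursors, was at 108, 127 and 131 CPM in shDNAJC2, against 149, 160 and 168 CPM in shCtrl, without overlap. FN1, the fibronectin gene on whose matrix microfibrils assemble, was at 2663, 2749 and 2808 CPM in shDNAJC2, against 2889, 3014 and 2931 CPM in shCtrl, also without overlap. Its log2 fold change was −0.10 (95% interval −0.41 to 0.20). FKBP10 and POGLUT3 act in the secretory pathway. FKBP10 had a log2 fold change of −0.09 over all libraries and 0.06 without shCtrl 3. POGLUT3 had one of −0.14 over all libraries (95% interval −0.65 to 0.36) and fell by 0.34 without shCtrl 3 (edgeR adjusted p 0.046), as one of the 4 genes called lower there, with HSPG2, VCAN and FURIN. Against shCtrl 3 alone the log2 fold change of POGLUT3 was 0.39.

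The integrin list had a median of 0.00 over 7 tested genes, with 2 lower and 2 higher without shCtrl 3. ITGA8 was at 6.68, 5.98 and 8.87 CPM in the knockdown libraries, against 30.9, 30.6 and 5.57 CPM in the controls, whereas ITGB5 was at 491, 540 and 490 CPM in shDNAJC2, against 264, 274 and 592 CPM in shCtrl. ITGB3 had a log2 fold change of 0.55 over all libraries (95% interval −0.36 to 1.47) and rose by 1.12 without shCtrl 3 (edgeR adjusted p 0.0034). ITGB8 had one of −0.74 over all libraries (−1.86 to 0.38) and fell by 1.09 without shCtrl 3 (edgeR adjusted p 0.012). Against shCtrl 3 alone both turned, to −0.16 for ITGB3 and 0.55 for ITGB8. ITGA8 was the other integrin gene called lower without shCtrl 3 and ITGB5 the other called higher. ITGA5 (−0.10 over all libraries, 0.04 without shCtrl 3) and ITGB1 (0.15 and 0.18) were called in neither comparison. Of the 9 TGF-beta ligands and early targets 4 were called lower and 1 higher without shCtrl 3, and the lower ones were TGFB1, PMEPA1, TGFBI and, named after its values were seen, TGFB2. TGFB1 was at 148, 168 and 165 CPM in the knockdown libraries, against 200, 206 and 203 CPM in the controls, and PMEPA1 at 9.03, 9.09 and 8.59 CPM in shDNAJC2, against 12.1 CPM in each control. Both separated the groups, as did TGFBI at 1886, 1911 and 1675 CPM in shDNAJC2, against 2727, 2917 and 2046 CPM in shCtrl. The groups overlapped for TGFB2, at 29.3, 22.7 and 31.4 CPM in shDNAJC2, against 49.3, 55.8 and 23.9 CPM in shCtrl. Against shCtrl 3 alone the log2 fold change of TGFB2 was 0.23. CCN2 was at 408, 411 and 398 CPM in shDNAJC2, against 335, 374 and 444 CPM in shCtrl.

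Of the 9 genes for enzymes that cleave elastin 6 were tested, with a median of 0.32, and 0 were called lower and 3 higher without shCtrl 3, namely CTSS, CTSL and, named after its values were seen, MMP12. The cathepsin gene CTSS was at 27.1, 25.5 and 22.4 CPM in the knockdown libraries, against 16.0, 20.1 and 19.5 CPM in the controls, higher without overlap. The gelatinase gene MMP2 was at 261, 287 and 263 CPM in shDNAJC2, against 319, 339 and 337 CPM in shCtrl, lower without overlap. CTSL was at 354, 374 and 264 CPM in shDNAJC2, against 147, 152 and 356 CPM in shCtrl. MMP12 was very low, at 0.522, 0.419 and 0.438 CPM in shDNAJC2, against 0.205, 0.0382 and 0.586 CPM in shCtrl. Its call thus rested on very few reads, and shCtrl 3 was its highest library.

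**Figure D4:**
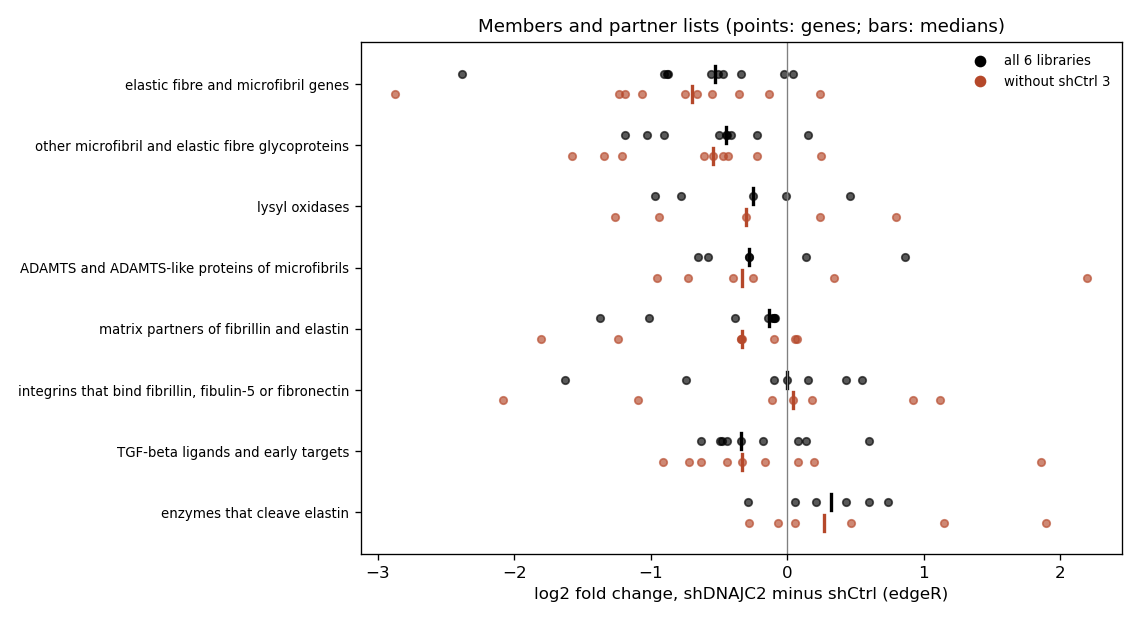
Log2 fold change, shDNAJC2 minus shCtrl (horizontal axis, edgeR), of each tested gene (points) by list, with list medians as bars, over all 6 libraries (black) and without shCtrl 3 (red). The members have a median of −0.53 over all 6 libraries and −0.70 without shCtrl 3, and the elastin-cleaving enzymes have medians of 0.32 and 0.27.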

How the data were processed

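Per the labels' protocols, mRNA was enriched from total RNA and sequenced with paired ends on an Illumina instrument. The authors deposited raw counts of reads per gene, with 1 column per library named by its title. The submitters' processing notes name GRCh38 (hg38) as the build. Aligner, counter, annotation release and strand setting are not given in the sources used here. The comparison used the two-sided quasi-likelihood test of edgeR 4.0.16 (R 4.3.3) with TMM normalization, filterByExpr and group as the only term. P-values were Benjamini-Hochberg adjusted over all genes tested, with a threshold of 0.05, and the prior count for log2 CPM was 2. Coordinates, lengths and GC content came from GENCODE 29. Counting intervals are exact Poisson at 95% and cover counting error only. DESeq2 1.42.0 and limma 3.58.1 were alternatives, beside other scalings, filters, a replicate block and leaving out libraries. Scripts were tested on simulated counts. DNAJC2, all members, from each pathway list the 3 genes with the smallest p and those over 100 CPM on average, and the 3 genes nearest to ELN and FBN1 are named, and other marker genes as values. Of the TGF-beta list, 1 gene that this rule names is not reported here. Members and lists were chosen with earlier results of these data known.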

Additional observations from a re-analysis of the deposited data

How the results depend on the processing

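Over all 6 libraries 0 genes, 0 members and 0 pathway list genes were called by edgeR under every scaling and filter tried, by limma-voom and with the GC trend removed, and DESeq2 called 35 genes, 0 members and 0 pathway list genes, with no adjusted p for ELN and MFAP2. Leaving out 1 library at a time gave 0 to 4945 genes, 0 to 8 members and 0 to 30 pathway list genes, and every call came from leaving out shCtrl 3. With the GC trend removed and shCtrl 3 left out, settings combined after the data had been seen, 5190 genes, 8 members and 27 pathway list genes were called. FBLN1 was then not called (adjusted p 0.095) and LTBP2 was called higher (0.031). Against shCtrl 3 alone, 0 genes were called and 814 had an unadjusted p under 0.05 in edgeR, and the log2 fold changes of ELN, FBN1 and FBN2 turned to 0.56, 0.19 and 0.20. EFEMP1, at 0.04 over all libraries, turned to −0.02 with library totals, −0.01 with the GC trend removed and −0.18 with shCtrl 3 also left out, and ran from −0.13 to 0.16 when 1 library was left out. LTBP2, at −0.02, turned to 0.01 by limma-voom and with the replicate block, 0.13 with the GC trend removed and 0.38 with shCtrl 3 also left out, and ran from −0.13 to 0.24 when 1 library was left out. The cause of these turns was not tested. The other 8 members kept a negative log2 fold change under every alternative, except ELN, FBN1 and FBN2 against shCtrl 3 alone. The replicate block called 0 members and left 439 genes at an unadjusted p under 0.05 in edgeR. Same-numbered libraries deviated from their group means in opposite directions (correlations −0.38, −0.52 and −0.66), and correlations of differently numbered pairs ran from −0.58 to 0.67. Whether libraries with the same number shared a batch cannot be told from these correlations. Depth limits ELN and MFAP2 most, with as few as 27 and 58 reads in a library.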
